A study of Mus musculus with 10 samples.

Results

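Ets factors are transcription factors that share a DNA-binding domain, the Ets domain, and read sequences built around a GGAA core. Values are given here for 10 family genes chosen by name, *Spi1* (which encodes PU.1), *Spib*, *Erg*, *Fli1*, *Ets1*, *Ets2*, *Elf1*, *Elf4*, *Etv6* and *Gabpa*, out of 24062 gene symbols counted in each library. Every one of the 10 passed the filter on low counts (at least 1 CPM, a gene's counts scaled to the library's total, in at least 2 libraries), which left 12221 genes to be tested. On mm10 (GRCm38, GENCODE vM21 gene bounds) *Spi1* lies at chr2:91082390-91115756, *Spib* at chr7:44525993-44532071, *Erg* at chr16:95359169-95586593, *Ets2* at chr16:95702075-95721051, *Fli1* at chr9:32422204-32542861 and *Ets1* at chr9:32636221-32757820. *Elf1* lies at chr14:79481194-79582494, *Elf4* at chrX:48411046-48463132, *Etv6* at chr6:134035700-134270158 and *Gabpa* at chr16:84834925-84863779.

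RNA was sequenced from cells grown from marrow LSK cells (Lin-SCA1+KIT+, a population rich in blood stem and progenitor cells) of C57BL/6J mice. All cultures received the cytokines SCF, FLT-3 ligand, IL-6 and IL-11. Cells on immobilized human IgG1 (5 µg/mL) formed the no Notch control, IgG, with 4 libraries harvested on day 14 and not sorted into DN stages. Cells on the Notch ligand Delta1ext-IgG (5 µg/mL) were sorted as DN1 (KIT++CD44+CD25-), DN2a (KIT++CD44+CD25+) and DN2b (KIT+CD44lo CD25+), with 2 libraries each. IL-7 (100 ng/mL) was added to the cultures sorted for DN2a and DN2b and left out of those sorted for DN1, so that stage cannot be told apart from IL-7 between DN1 and either DN2 stage, nor Notch ligand from sorting in any comparison with IgG. DN2a and DN2b had the same IL-7, which the controls did not receive. It was added at day 14, the day in the control labels, so the DN2 cultures ran longer than the controls. Culture time thus cannot be told apart from Notch ligand between either DN2 stage and IgG. The DN labels carry a year and the control labels do not, so a batch cannot be told apart in comparisons with IgG either. The libraries of a group came from independent LSK isolates. DN replicates 1 and 2 follow the year in the labels, and IgG replicates 1 to 4 are those labelled D1, D2, R1 and R2, letters that the sources used here do not explain.

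In blood, PU.1 drives the myeloid and B lineages and is present in early thymic progenitors, where it must be silenced before T lineage commitment. *Spib* encodes Spi-B, the closest relative of PU.1, used in B cells and plasmacytoid dendritic cells. ERG and FLI1 sustain stem and progenitor cells, ETS1 is required for normal thymocyte and NK cell development, ELF1 and ELF4 (MEF) act in T and NK cells, ETV6 (TEL) is a repressor needed by adult blood stem cells, and GABPA is the DNA-binding subunit of GABP, which controls housekeeping and mitochondrial genes and the IL-7 receptor. ETS2 acts downstream of Ras and MAP kinase signals.

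The sequence before the start of a gene is where Ets factors and the Notch factor RBPJ often bind. For 7 members RefSeq (GRCm38.p6) gave 11 starts, and the 250 bases before each were searched on both strands. Shown are *Spib*, a member that fell, and the outermost and an inner start of *Erg*, a member that rose, each 5′ to 3′ on the minus strand, with every GGAA or its reverse complement TTCC in capitals.
Spib, chr7:44532072-44532321: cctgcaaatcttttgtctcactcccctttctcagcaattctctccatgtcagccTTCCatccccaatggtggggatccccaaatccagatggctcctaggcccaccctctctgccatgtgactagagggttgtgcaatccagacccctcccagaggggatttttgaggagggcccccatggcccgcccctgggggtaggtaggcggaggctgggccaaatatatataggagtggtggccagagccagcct
Erg outermost start, chr16:95586594-95586843: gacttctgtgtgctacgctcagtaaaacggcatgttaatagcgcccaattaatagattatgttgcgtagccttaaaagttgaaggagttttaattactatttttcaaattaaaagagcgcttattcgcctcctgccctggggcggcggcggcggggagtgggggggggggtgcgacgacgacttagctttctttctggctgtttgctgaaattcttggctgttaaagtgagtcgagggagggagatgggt
Erg inner start, chr16:95459349-95459598: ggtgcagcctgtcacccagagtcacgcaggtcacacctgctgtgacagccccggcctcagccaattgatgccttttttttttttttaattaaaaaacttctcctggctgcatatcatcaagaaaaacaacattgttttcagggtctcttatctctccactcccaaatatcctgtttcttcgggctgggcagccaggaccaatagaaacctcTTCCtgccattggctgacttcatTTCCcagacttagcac
The *Spib* window held 1 copy of the core, the outermost *Erg* window 0 and the inner *Erg* window 2, against a median of 3 over all 32851 windows in the RefSeq table. The remaining *Erg* start held 4 copies, a window of *Elf4* 6 and that of *Gabpa* 5, and the other member windows held 0 to 3. The core was present in 9 of the 11 member windows and in 93.4% of all windows. TGGGAA, a motif of RBPJ that overlaps the Ets core, was found in 2 member windows, the inner *Erg* start and *Etv6*, and in 21.6% of all windows. GAGGAAGT, a PU.1-type site that contains the core, was found in the window of *Gabpa* and in 2.44% of all windows. CCGGAAGT, an ETS1 and GABP-type site that also contains the core, was in 0 member windows and in 2.88% of all windows. *Spi1*, *Ets1* and *Fli1* were not among the 7.

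Each library held between 12354635 and 35367925 reads assigned to genes, so that 3 counts, taken as the detection floor, equalled 0.0848 to 0.243 CPM. Levels below are CPM over gene counts, whereas log2FC values and adjusted p come from 1 edgeR quasi-likelihood fit of all 10 libraries on TMM-scaled counts, with Benjamini-Hochberg adjustment over the 12221 genes. Scaling to library size alone would move the median log2FC of all genes from 0.01 to 0.27 in DN1 over IgG, from -0.03 to -0.23 in DN2a over DN1 and from -0.02 to -0.21 in DN2b over DN1. Labelled cell types were checked against marker genes. The 10 T lineage markers summed to 2.42 to 9.61 CPM in IgG, 420.5 to 525 in DN1, 2603 to 3630 in DN2a and 4975 to 6212 in DN2b. *Il2ra*, 1 of these 10, encodes the CD25 of the sort gates and averaged 24.1 ± 4.99 CPM in DN1 and 1392 ± 366 in DN2a (SD, n = 2 each). It made up 1651 of the 3630 CPM in DN2a replicate 1 and 1133 of the 2603 in replicate 2, a part of the sum that the gates select for. The 8 neutrophil markers summed to 22040 to 61730 CPM in IgG, to 2971 in DN1 replicate 1 and 85.5 in DN1 replicate 2, to 10.7 and 20.2 in DN2a and to 1.496 and 2.91 in DN2b. The 7 macrophage markers in the files summed to 1440 to 5710 CPM in IgG and to 9.40 to 45.2 over the 6 DN libraries. Mast and basophil markers (6 genes) summed to 1671 CPM in DN1 replicate 1, 484 in DN1 replicate 2 and 30.3 to 137 in IgG, and were at 251 to 561 in DN2a and DN2b. *Cpa3* made up most of the sum in the DN stages, at means of 768, 465 and 355.5 CPM against 32.4 in IgG. The others did not follow it: in DN2b over IgG 1 of the 6 was called higher (*Cpa3*) and 5 lower, beside 19.9% and 22.5% of all genes. The no Notch libraries thus carried high neutrophil and macrophage transcripts, and DN1 replicate 1 carried more neutrophil and mast cell transcripts than DN1 replicate 2. In these bulk samples, fewer cells of a type and less RNA per cell cannot be told apart.

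**Figure D1:**
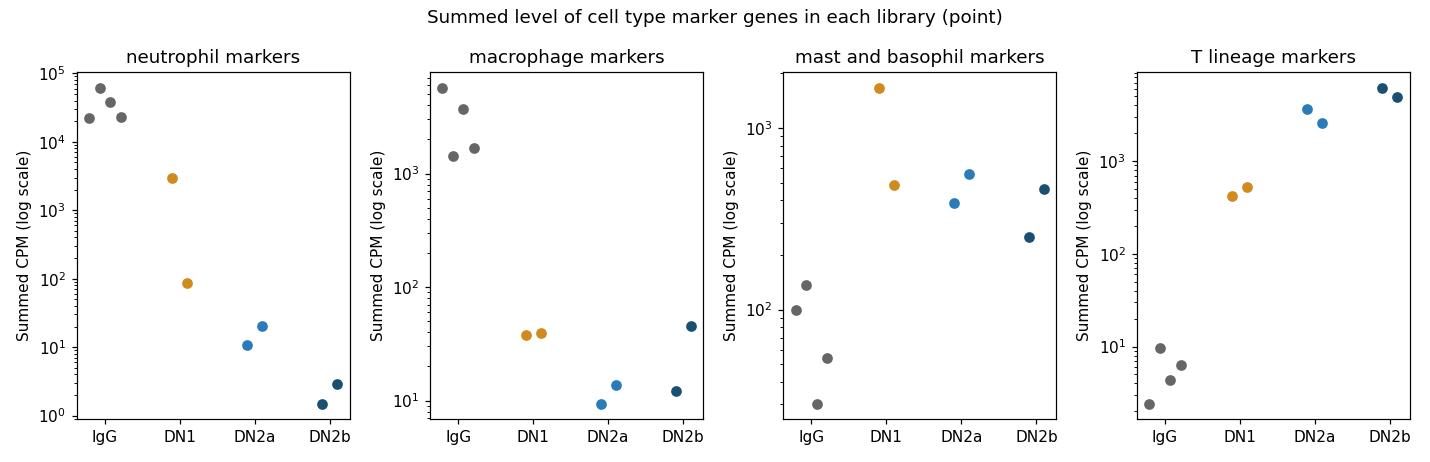
Summed CPM (log axis) of neutrophil, macrophage, mast and basophil, and T lineage marker genes in each library (1 point per library, by group). Neutrophil markers stand at 22040 CPM or more in the 4 IgG libraries and differ between the DN1 libraries (2971 and 85.5), whereas T lineage markers are lowest in IgG and highest in DN2b.

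*Spi1* fell in every stage relative to the no Notch control and again from DN1 to DN2b. Its level was 299.9, 322, 448 and 419 CPM in IgG replicates 1 to 4, 124 and 78.7 CPM for DN1, 24.9 and 28.7 CPM for DN2a and 14.7 and 12.6 CPM for DN2b. No library of one group overlapped another group, and the order was IgG, DN1, DN2a, DN2b. The log2FC over IgG was -2.15 (SE 0.255, adjusted p = 0.000709) in DN1, -3.85 (SE 0.283, adjusted p = 4.78e-05) in DN2a and -4.83 (SE 0.300, adjusted p = 1.75e-05) in DN2b, a 28.5-fold lower level in DN2b. Each of these calls held in 17 of 17 alternatives, and against IgG replicates 1 and 2 alone the DN1 value was -2.05, against replicates 3 and 4 alone -2.26.

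Between DN stages, *Spi1* was lower in DN2b than in DN1 by a log2FC of -2.68 (SE 0.283, adjusted p = 0.0034), a call that held in 17 of 17 alternatives. DN2a over DN1 gave -1.71 (SE 0.272, adjusted p = 0.0460), with the same direction in 17 of 17 alternatives but the call in 5 of them. That call was lost when any library other than DN1 replicate 2 was left out, with adjusted p from 0.0581 to 0.450, and leaving out DN1 replicate 1, the library with more neutrophil and mast cell transcripts, gave -1.42 (adjusted p = 0.199). It was also lost with only the compared groups fitted (adjusted p = 0.116) and among the 6 DN libraries alone, where the value was -1.71 (adjusted p = 0.0954) without and -1.68 (adjusted p = 0.106) with the label year as a replicate block. DN2b over DN2a was -0.98 (SE 0.271, unadjusted p = 0.00522, adjusted p = 1.0). The part of the other cell types in the *Spi1* levels was not tested; without DN1 replicate 1 the DN1 value over IgG was -2.43 (adjusted p = 0.00262).

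*Spib* was near the detection floor in all DN libraries. It had 19, 52, 16 and 38 counts in IgG replicates 1 to 4 (0.452 to 2.06 CPM), 2 and 0 counts in the DN1 libraries, 3 and 0 in the DN2a libraries and 5 and 1 in the DN2b libraries. The groups did not overlap between IgG and any DN stage. Set against the floor of 3 counts in each library, the IgG mean was at least 7.99-fold higher than DN1 and at least 7.25-fold higher than DN2a, with adjusted p of 0.0289 and 0.0296, and DN2b did not pass the test (adjusted p = 0.111). *Spib* reached 1 CPM in IgG replicates 2 and 4 only (2.06 and 1.28 CPM), with at most 0.325 CPM in any DN library. It passed the filter through the group where it was high, so its calls as lower are not independent of that selection. The DN1 call was lost without DN1 replicate 1 (adjusted p = 0.0516) or replicate 2 (0.132), and the DN2a call without DN2a replicate 1 (0.0697), DN2a replicate 2 (0.141) or IgG replicate 2 (0.0520). Both calls were also lost against either pair of controls alone (DN1 adjusted p = 0.0626 and 0.0915, DN2a 0.0600 and 0.0977). The 6 markers of plasmacytoid dendritic cells, a cell type that uses Spi-B, summed to 281 to 435 CPM over the controls and to 103 to 242 over the 6 DN libraries. They did not move together: *Irf8* was lower in every stage and *Bst2* in DN1 and DN2a, whereas *Ly6d* was higher in every stage, from 0.0660 ± 0.0634 CPM in IgG (SD, n = 4) to 43.3 ± 12.9 in DN2b (SD, n = 2). *Siglech* was at 0 to 0.337 CPM in IgG and at 0 in every DN2a and DN2b library, and *Tcf4* and *Ccr9* were not called. The 8 B lineage markers summed to 5.77 to 17.5 CPM over all libraries, with *Vpreb1* higher in every stage (2.45 ± 0.887 CPM in DN2b against 0.143 ± 0.0416 in IgG) and *Pax5* at 0 in every IgG, DN1 and DN2b library. The part of these cell types in the *Spib* values was not tested.

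*Erg* rose in all 3 stages. IgG replicate 1 had 5.28 CPM and the other 3 control libraries 14.8, 15.8 and 15.3, against 49.0 and 34.9 for DN1, 34.2 and 37.8 for DN2a and 32.0 and 30.7 for DN2b. Every DN library was thus above every control library, and the stages lay close together. The log2FC over IgG was 1.45 (SE 0.36, adjusted p = 0.0156) in DN1, 1.44 (SE 0.36, adjusted p = 0.0109) in DN2a and 1.23 (SE 0.362, adjusted p = 0.0228) in DN2b. These calls were lost without DN1 replicate 1 (1.26, adjusted p = 0.0814), DN2a replicate 2 (1.32, 0.0709) and DN2b replicate 1 or 2 (1.17 and 1.29, 0.111 and 0.0716), and the DN2b call also with only the compared groups fitted (1.20, 0.0546). DN2a and DN2b differed from DN1 by -0.01 (SE 0.43) and -0.22 (SE 0.431), neither of which passed the test. Against IgG replicates 1 and 2 alone, the values over IgG were 1.63 in DN1 (adjusted p = 0.0529) and 1.40 in DN2b (0.0650).

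*Fli1*, which lies near *Ets1* on chromosome 9 as *Erg* lies near *Ets2* on chromosome 16, fell in DN1 and DN2a. Its level was 52.6 and 41.8 CPM in IgG replicates 1 and 2, 105.5 and 103.6 in replicates 3 and 4, 37.1 and 35.5 for DN1, 32.8 and 33.2 for DN2a and 33.6 and 50.2 for DN2b. The controls thus split by label letter, and DN2b replicate 2 lay among them. Over all 4 controls the log2FC was -1.29 (SE 0.347, adjusted p = 0.0212) in DN1, -1.23 (SE 0.346, adjusted p = 0.0174) in DN2a and -0.90 (SE 0.34, adjusted p = 0.0576) in DN2b. Against replicates 1 and 2 alone it was -0.80, -0.76 and -0.41 (adjusted p = 0.0802, 0.0705 and 0.294), and against replicates 3 and 4 alone -1.67, -1.60 and -1.26 (adjusted p = 0.00481, 0.00319 and 0.00728). The direction was the same against both pairs of controls and the size was not. The calls were also lost without either DN1 library (adjusted p = 0.0926 and 0.0996) or either DN2a library (0.114 and 0.0881), and in DN1 under library-size scaling (-1.06, adjusted p = 0.0687). DESeq2 called *Fli1* in DN2b as well (-0.92, adjusted p = 0.0299).

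*Ets1* was the member that rose at DN2b. It stood at 16.5, 41.0, 32.1 and 21.4 CPM in IgG, 18.2 and 15.4 in the DN1 libraries, 17.2 and 16.7 in the DN2a libraries and 66.5 and 90.7 in the DN2b libraries. Both DN2b libraries were above all other libraries, whereas DN1 and DN2a lay at the low end of the controls. The log2FC of DN2b was 1.40 (SE 0.359, adjusted p = 0.0132) over IgG and 2.42 (SE 0.454, adjusted p = 0.0338) over DN1. DN2b over DN2a, libraries that share label dates, was 2.20 (SE 0.45, unadjusted p = 0.000759) and did not pass after adjustment (adjusted p = 0.634), whereas DESeq2 called it (adjusted p = 0.00319). The value over IgG lost its call without DN2b replicate 2 (1.19, adjusted p = 0.0869) and against IgG replicates 1 and 2 alone (1.21, 0.0743). The value over DN1 held its direction in 17 of 17 alternatives and its call in 10, and was lost without DN1 replicate 1 (0.193) or 2 (0.0842), DN2a replicate 1 (0.0667) or 2 (0.0613), DN2b replicate 1 (0.11) or 2 (0.139), or IgG replicate 3 (0.0563). DN1 and DN2a over IgG were at -1.02 (SE 0.392, adjusted p = 0.0743) and -0.81 (SE 0.388, adjusted p = 0.116).

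*Ets2* was lowest in DN2a. Its levels were 30.1, 26.1, 34.2 and 22.01 CPM in IgG, 14.9 and 23.2 for DN1, 11.8 and 9.77 for DN2a and 18.9 and 24.5 for DN2b. DN2a lay below every other group, and DN1 and DN2b overlapped the controls. The log2FC of DN2a over IgG was -1.47 (SE 0.34, adjusted p = 0.00744), lost without DN2a replicate 1 (adjusted p = 0.0539) or 2 (0.0653). DN2b over DN2a was 1.0 (SE 0.371, adjusted p = 1.0).

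**Figure D2:**
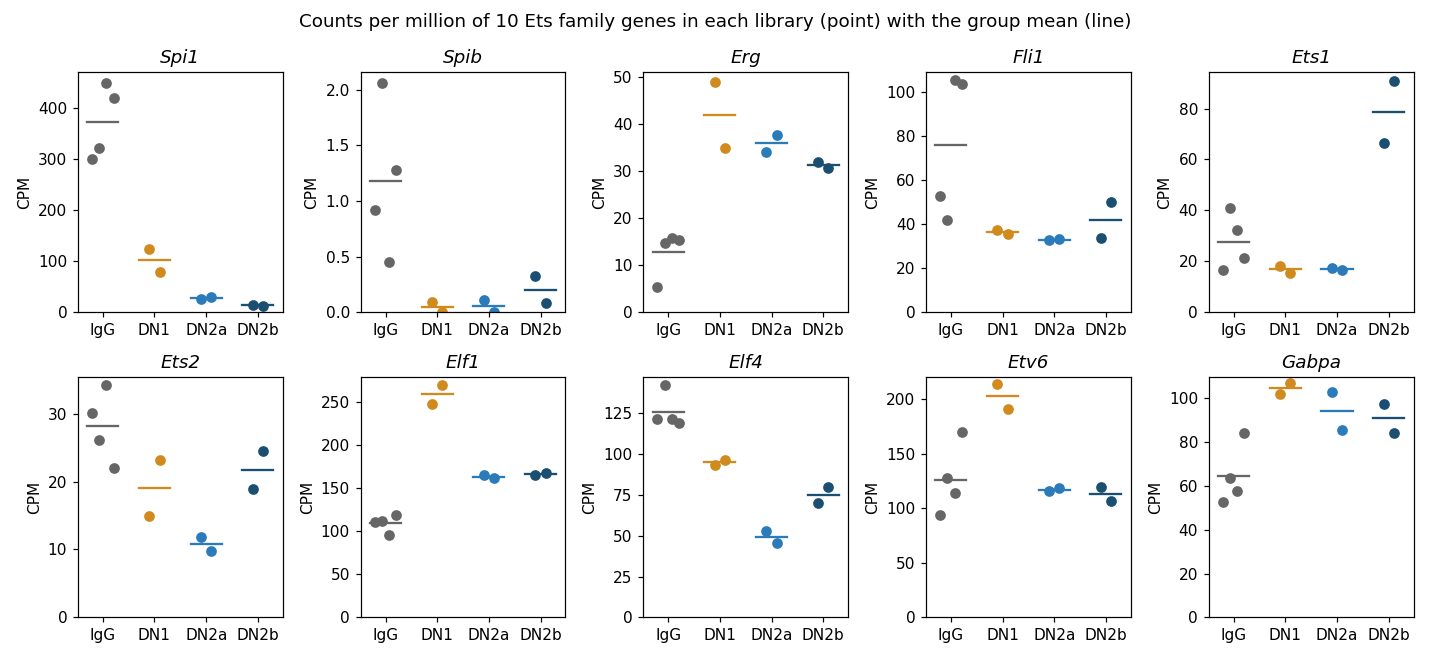
CPM (y axis, starting at 0) of the 10 Ets family genes in each of the 10 libraries (points) with the group mean (line). *Spi1* steps down from 299.9 to 448 CPM in IgG to 12.6 and 14.7 in DN2b, *Erg* is higher in each DN library than in each control, and *Ets1* stands apart in DN2b at 66.5 and 90.7.

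*Elf1* rose in DN1 and *Elf4* fell in all 3 stages. *Elf1* was at 110.9, 112, 95.9 and 119 CPM in IgG, 248 and 270.0 for DN1, 165 and 161 for DN2a and 166 and 167 for DN2b. Every DN library was above every control, with DN1 highest. The log2FC was 0.97 (SE 0.19, adjusted p = 0.00575, called in 17 of 17 alternatives) in DN1, and 0.50 and 0.52 (adjusted p = 0.0603 and 0.0535) in DN2a and DN2b, both of which were called under library-size scaling (adjusted p = 0.0252 and 0.0218). About 4.85% of its exon bases overlap *Wbp4* on the opposite strand, and the strand setting of the counting is not given in the sources used here.

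*Elf4* was at 121, 142, 122 and 119 CPM in IgG, 93.7 and 96.8 in the DN1 libraries, 53.2 and 45.4 in the DN2a libraries and 69.9 and 79.8 in the DN2b libraries. All DN libraries were below all controls, with DN2a lowest. The DN2a value over IgG, -1.44 (SE 0.228, adjusted p = 0.00136), was called in 17 of 17 alternatives. DN2b over IgG was -0.85 (SE 0.221, adjusted p = 0.014), lost without DN2b replicate 1 (0.103) or 2 (0.0595). DN1 over IgG was -0.69 (SE 0.219, adjusted p = 0.0401) and was called in 4 of 17 alternatives. It was -0.40 (adjusted p = 0.121) under library-size scaling, and leaving out any library other than IgG replicate 4 lost the call, with adjusted p from 0.0524 to 0.164.

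*Etv6* and *Gabpa* did not pass edgeR's test in any of the 6 comparisons, nor that of DESeq2, although each reached an unadjusted p under 0.05 in 2 of them. *Etv6* was at 93.5, 128, 114 and 170.2 CPM in IgG, 214 and 191 for DN1, 116 and 119 for DN2a and 119.7 and 107 for DN2b. DN1 was above all other libraries, at a log2FC over IgG of 0.43 (SE 0.205, adjusted p = 0.142). *Gabpa* was at 52.9, 63.7, 57.7 and 84.0 CPM in IgG and at 84.4 to 107 over the 6 DN libraries, which were all above the controls. Its log2FC over IgG was 0.44, 0.48 and 0.43 in DN1, DN2a and DN2b (SE 0.196, 0.195 and 0.196), with adjusted p of 0.113, 0.069 and 0.101. It was called in DN1 under library-size scaling (0.70, adjusted p = 0.0389) and in DN2a without IgG replicate 2 (0.53, adjusted p = 0.0486). Exons on the opposite strand cover 6.98% of the exon bases of *Gabpa* (from *Atp5j*) and 2.26% of those of *Etv6* (from *Gm17089*). *Gabpb1*, which encodes the partner of GABPA, averaged 45.9 ± 14.9 CPM in IgG (SD, n = 4) and was higher in DN2a (log2FC 0.96, SE 0.323, adjusted p = 0.0357) and DN2b (1.09, SE 0.322, adjusted p = 0.0236), each called in 11 of 17 alternatives. *Gabpb2*, the other partner gene, passed no test in the comparisons with IgG (-0.02, -0.51 and -0.58).

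Counted by comparison, 2 of the 10 members were higher and 4 lower in DN1 than in IgG, where 14.3% of all genes tested were higher and 17.0% lower. Library-size scaling alone turned the balance in that comparison, with 3 members higher and 2 lower and 2585 genes higher and 1625 lower, in place of 1753 and 2081. DESeq2 called 2 members higher and 6 lower there, adding *Ets1* and *Ets2*, beside 1933 genes higher and 2700 lower. In DN2a over IgG 1 member was higher and 5 lower (2 and 5 by library size), beside 21.2% and 24.3% of all genes. In DN2b over IgG 2 members were higher and 2 lower, beside 19.9% and 22.5%. There 3 were higher and 2 lower by library size (2624 and 2476 genes), and 3 and 3 by DESeq2 (2584 and 3329 genes). Between stages, DN2a over DN1 had 0 members higher and 1 lower (*Spi1*), beside 0.196% and 0.205% of all genes. DESeq2 also called *Spi1* alone of the members, beside 125 genes higher and 349 lower. DN2b over DN1 had 1 higher (*Ets1*) and 1 lower (*Spi1*), beside 1.01% and 0.892%. In DN2b over DN2a edgeR called 0 members and 0.0% of all genes in either direction (higher 0.0%, lower 0.0%), with 335 genes and 4 members at an unadjusted p under 0.05, whereas DESeq2 called 29 genes, 16 higher and 13 lower. The median log2FC of the 10 members over IgG was -0.76, -1.02 and -0.35 in DN1, DN2a and DN2b, beside 0.01, -0.05 and -0.05 over all genes. The 3 comparisons with IgG share the same control libraries. *Spib*, counted as lower in DN1 and DN2a, passed the filter only through IgG libraries.

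**Figure D3:**
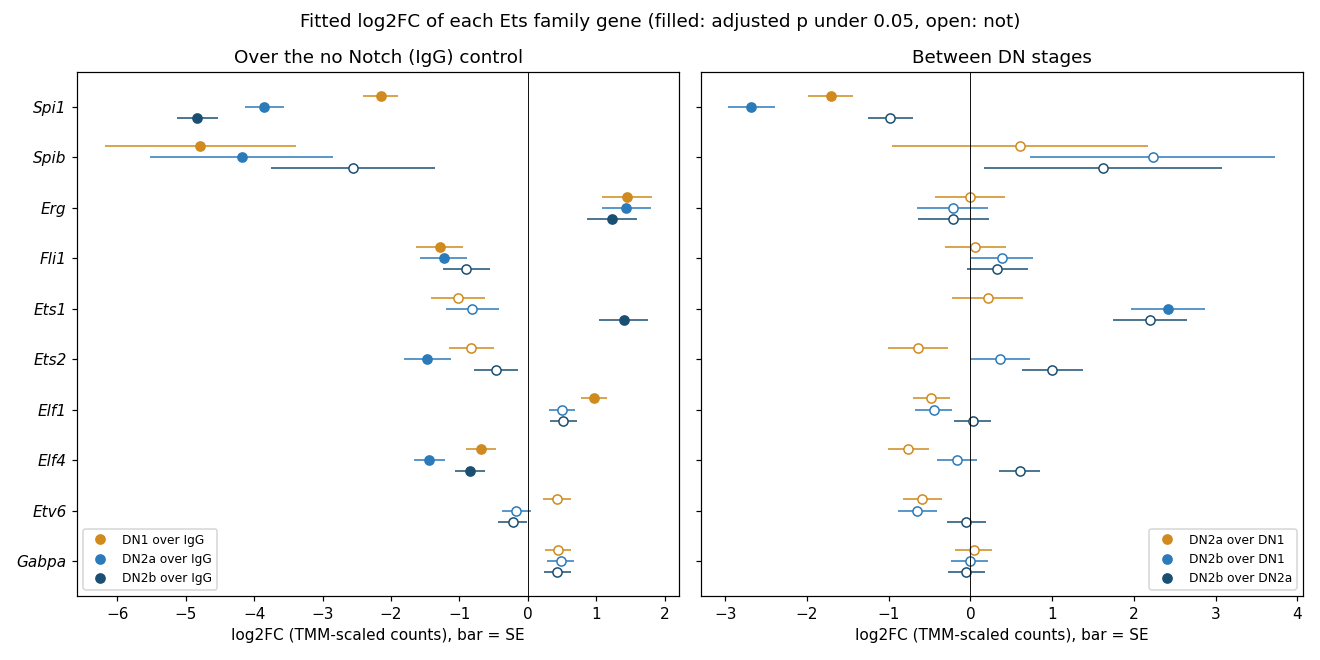
Fitted log2FC (x axis, bars show the SE) of each member over IgG on the left and between DN stages on the right, with filled points for an adjusted p under 0.05. *Spi1* reaches -4.83 in DN2b over IgG, *Erg* lies between 1.23 and 1.45 in all 3 stages, and *Ets1* turns from -0.81 in DN2a to 1.40 in DN2b.

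Per kb of exon, which allows levels to be set side by side between genes (GENCODE vM21 exon lengths, not known to be the annotation of the counting), *Spi1* led the family in IgG at a mean of 138 CPM per kb. *Fli1*, *Etv6* and *Elf4* followed at 21.8, 21.1 and 20.5 CPM per kb, values that overlapped between libraries. In DN1, *Spi1* (37.6 CPM per kb) could not be ordered against *Elf1* (38.4) or *Etv6* (33.9), since the *Spi1* libraries were at 45.9 and 29.2. In DN2a, *Elf1* (24.2), *Etv6* (19.6) and *Gabpa* (16.6) led, and *Erg* (10.4) and *Spi1* (9.95 CPM per kb) overlapped. In DN2b the first 3 were the same genes, *Ets1* and *Erg* stood at 9.27 and 9.04 CPM per kb with overlapping libraries, and *Spi1* was at 5.06.

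As a share of the summed CPM per kb of 26 Ets genes, *Spi1* made up 47.5% ± 2.56 over the 4 controls, 16.4% ± 4.18 for DN1, 7.07% ± 0.614 for DN2a and 3.37% ± 0.671 for DN2b (SD, n = 2 per stage). *Elf1* went from 5.72% ± 1.07 in IgG to 17.0% ± 2.08, 17.2% ± 0.514 and 16.4% ± 1.35 in the stages. *Ets1* went from 1.42% ± 0.0546 in DN2a to 6.09% ± 0.789 in DN2b. The sum itself was 289.5 ± 43.1 CPM per kb in IgG, 227.5 ± 14.2 in DN1, 141 ± 2.13 in DN2a and 151 ± 13.4 in DN2b. Because shares add up to a whole, a smaller *Spi1* share raises the others. Within a library, *Ets1* stood at 0.0162 to 0.0405 of the *Spi1* level per kb in IgG, 0.0466 and 0.0623 for DN1, 0.220 and 0.184 for DN2a and 1.44 and 2.30 for DN2b.

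**Figure D4:**
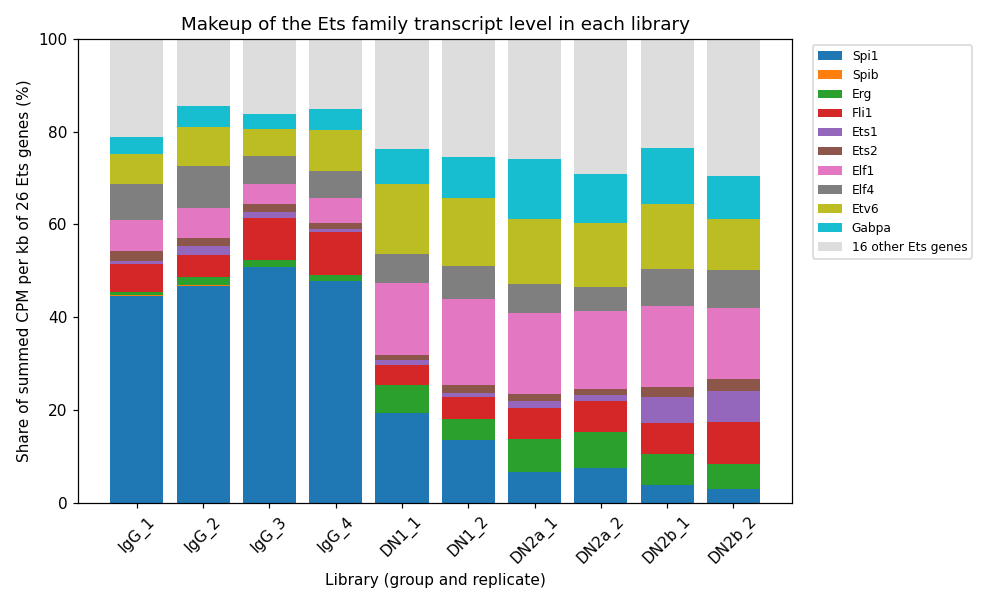
Share (%) of the summed CPM per kb of 26 Ets genes held by each of the 10 members and by the 16 other Ets genes, 1 bar per library. The *Spi1* share is 44.6% to 50.8% in the IgG libraries and 2.89% and 3.84% in DN2b.

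Beyond the 10 members, 16 of 17 other Ets genes looked for were in the files and 10 passed the filter. Over IgG, 2 of these 10 fell in DN1 and 3 in each of DN2a and DN2b, beside 17.0%, 24.3% and 22.5% of all genes, shares near that of the list. DESeq2 called 3, 5 and 4 of them lower, beside 2700, 3570 and 3329 of the 12221 genes, adding *Etv1* in DN1, *Elk1* and *Elk3* in DN2a and *Elk3* in DN2b. EdgeR called 0 of these 10 higher, beside 14.3%, 21.2% and 19.9% of all genes in DN1, DN2a and DN2b. In DN1, 2 were higher at an unadjusted p under 0.05, *Elf2* and *Etv4*, which DESeq2 called beside 1933 genes higher. *Spic*, which encodes Spi-C, another PU.1 relative and a factor of red pulp macrophages, had 58, 16, 133 and 37 counts in IgG, 1 and 1 in DN1 and 0 in the other 4 DN libraries, at least 14.3-fold, 13.0-fold and 9.65-fold lower by stage. *Etv3*, a repressor gene, fell from 78.0 ± 10.7 CPM (SD, n = 4) in IgG by a log2FC of -1.31 (SE 0.237, adjusted p = 0.00401) in DN1, -0.79 (adjusted p = 0.0202) in DN2a and -0.68 (adjusted p = 0.0382) in DN2b. *Etv1*, at 1.74 to 6.78 CPM in IgG, was lower in DN2a and DN2b (adjusted p = 0.0148 and 0.0272). *Spic* and *Etv1* reached 1 CPM in IgG libraries only, so both passed the filter through the group where they were high. Between DN stages edgeR and DESeq2 called 0 of the 10, with *Elk3* in DN2a over DN1 and *Elk3* and *Etv3* in DN2b over DN1 at an unadjusted p under 0.05.

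Genes that PU.1 is known to drive in myeloid cells were much lower in the DN stages. Of the 14 listed, 12 were lower in DN1 and 13 in each of DN2a and DN2b over IgG, beside 17.0%, 24.3% and 22.5% of all genes. DESeq2 called 13, 13 and 14 of the 14 lower, beside 2700, 3570 and 3329 of the 12221 genes. EdgeR called 0 of the 14 higher, beside 14.3%, 21.2% and 19.9% of all genes, and 0 were higher at an unadjusted p under 0.05. DESeq2 also called 0 higher, beside 1933, 2692 and 2584 genes. *Msr1* and *Fcgr1* reached 1 CPM in IgG libraries only. With genes at the floor set to their bound, the median log2FC was -5.50, -8.88 and -9.56. The M-CSF receptor gene *Csf1r* averaged 905 ± 323 CPM in IgG (SD, n = 4), 23.8 ± 2.88 in DN1 (SD, n = 2), and was at the floor in DN2a and DN2b, at least 5569-fold and 4131-fold below IgG. *Itgam*, which encodes CD11b, went from 750 ± 175 CPM in IgG to 41.8 ± 21.3 in DN1, 2.65 ± 1.94 in DN2a and 1.30 ± 0.914 in DN2b. *Lyz2*, which encodes lysozyme, went from 8566 ± 2978 CPM to 146 ± 172, 4.07 ± 0.139 and 3.43 ± 1.41. The gene edgeR called in no stage was *Btk*, a kinase of B and myeloid cells, at 81.0 ± 19.1 CPM in IgG and 126 ± 38.4, 81.1 ± 7.88 and 53.7 ± 16.1 in the stages (log2FC 0.37, -0.05 and -0.65, adjusted p = 0.296, 0.877 and 0.0771). DESeq2 called it lower in DN2b than in IgG and in DN1. Between stages, 1 target fell in DN2a over DN1 (*Csf1r*) and 4 in DN2b over DN1 (*Csf1r*, *Csf3r*, *Itgam* and *Lyz2*), beside 0.205% and 0.892% of all genes. DESeq2 called 5 and 7 targets lower there, beside 349 and 483 of the 12221 genes. The medians were -2.33 and -2.86 over the 13 genes above the floor in at least 1 of the groups. In DN2b over DN1 *Csf1r* was called in 17 of 17 alternatives, *Itgam* in 12, *Lyz2* in 6 and *Csf3r* in 5. DN1 replicate 1, the library with more neutrophil transcripts, had 9.72 CPM of *Csf3r* and 267.7 of *Lyz2*, against 1.08 and 24.6 in DN1 replicate 2. Over IgG, 7 of 8 neutrophil markers were lower in DN1 and all 8 in DN2a and DN2b, and all 7 macrophage markers were lower in each stage. Between stages the macrophage markers did not fall together: in DN2b over DN1 edgeR called *Csf1r* alone, lower. DESeq2 called 2 higher (*Emr1* and *Mrc1*) and 2 lower (*Cd68* and *Csf1r*), beside 339 genes higher and 483 lower. *C1qa* was at 0 in every DN library, and 3 genes (*Csf1r*, *Cd68* and *Msr1*) are on both the macrophage and the target list. The part of these cell types in these values was not tested.

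**Figure D5:**
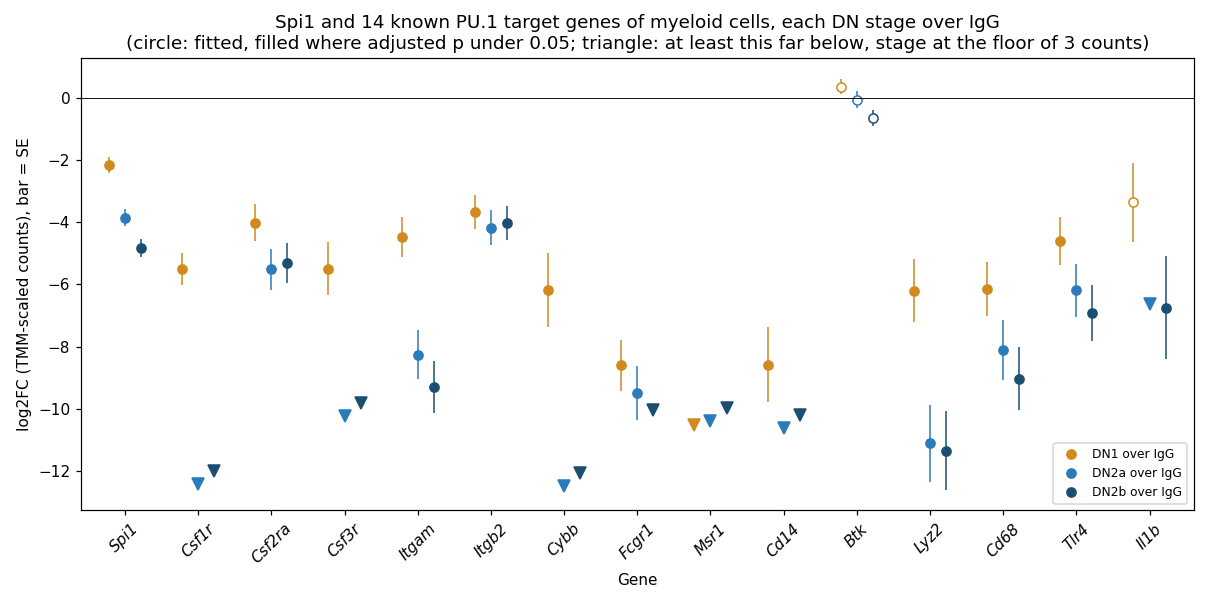
Log2FC of *Spi1* and 14 known PU.1 target genes in each DN stage over IgG (circles with SE, filled for an adjusted p under 0.05), or, for a stage at the floor of 3 counts, the value it is at least below (triangles, from plain CPM). *Spi1* lies at -2.15, -3.85 and -4.83 and *Btk* alone lies between -0.65 and 0.37.

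Among 10 factors known to work with or against PU.1, *Gata3* and *Tcf7*, the T lineage factors, were higher in all 3 stages. *Gata3* went from 0.174 ± 0.0512 CPM in IgG (SD, n = 4) to 14.5 ± 0.594, 30.9 ± 2.27 and 43.4 ± 18.97 (SD, n = 2 each), and rose again from DN1 to DN2b by a log2FC of 1.76 (SE 0.356, adjusted p = 0.0426), called in 5 of 17 alternatives. *Tcf7* went from 0.991 ± 0.689 CPM to 278 ± 8.70, 470.5 ± 33.1 and 523 ± 18.5. The myeloid partners *Cebpa*, *Cebpb* and *Irf8* were lower in all 3 stages, with *Irf8* at 138 ± 36.1 CPM in IgG and 5.83 ± 1.51, 7.17 ± 1.09 and 8.92 ± 2.96 in the stages. *Irf4* fell in DN1 and DN2a and *Jun* in DN2a. *Runx1*, which binds the *Spi1* upstream enhancer, passed no test (log2FC 0.16, -0.29 and 0.27 over IgG). *Gata1* and *Gata2*, factors of the mast and erythroid lineages that oppose PU.1, were called higher in DN1 over IgG (adjusted p = 0.0259 and 0.0213), where the libraries of each overlapped the controls. *Gata2* was at 199.9 and 16.9 CPM in the DN1 libraries and *Gata1* at 94.9 and 2.06. Without DN1 replicate 1 both calls were lost, with *Gata1* going from a log2FC of 4.51 to 0.08 (adjusted p = 0.969) and *Gata2* from 3.27 to 0.72 (adjusted p = 0.584). Mast and basophil markers differed between the same libraries by 1671 and 484 CPM, and their part in these calls was not tested.

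Of the 5 factors that share blood stem cell enhancers with ERG and FLI1, *Lmo2*, a bridging protein gene, fell between the stages while *Erg* stayed high. Its mean level was 108 ± 15.6 CPM over the 4 controls, 116 ± 72.8 over the DN1 libraries, 6.10 ± 2.04 for DN2a and 4.42 ± 4.05 for DN2b (SD, n = 2 per stage). It was lower in DN2a and DN2b than in IgG (log2FC -4.22, SE 0.646, adjusted p = 0.00121, and -4.71, SE 0.669, adjusted p = 0.000867). Relative to DN1 it was lower in DN2b (-4.52, adjusted p = 0.0156, called in 13 of 17 alternatives) and in DN2a (-4.02, adjusted p = 0.0495, called in 7 of 17). *Tal1* was higher in DN1 than in IgG (1.66, SE 0.484, adjusted p = 0.0292, called in 12 of 17 alternatives) and *Lyl1*, its relative, passed no test. Between stages DESeq2 called *Tal1* and *Gata2* lower as well as *Lmo2*, in DN2a and in DN2b over DN1, whereas edgeR did not (*Tal1* -2.53 and -2.67, adjusted p = 0.157 and 0.0739). In DN1 replicates 1 and 2, *Lmo2* was at 167 and 64.1 CPM and *Tal1* at 156 and 73.5. Megakaryocyte and erythroid markers, of which there were 8, differed between the same libraries (662 and 137 CPM) and summed to 121 and 139 in DN2a and 19.3 and 28.4 in DN2b, as mast and basophil markers differed (1671 and 484). In IgG these 8 summed to 253 to 916 CPM, with *Pf4* at a mean of 503. They did not move together: in DN1 over IgG *Pf4* was called lower and *Gata1*, *Itga2b* and *Klf1* higher. *Itga2b*, at a mean of 127 CPM, made up most of the DN2a sum. Without DN1 replicate 1, the calls of *Lmo2* in DN2a and DN2b over DN1 (-3.27 and -3.76) and of *Tal1* in DN1 over IgG (1.11) were lost. The part of these cell types in the *Lmo2* and *Tal1* values was not tested.

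The genes with the most similar profile were found by Pearson's r of log2(CPM + 1) over the 10 libraries, which fall apart into IgG and DN groups and share their depth. For *Spi1* these were *Lyn* (r = 0.995), *Itpripl2* (0.993) and *Ptgs1* (0.992). *Lyn*, a Src family kinase gene, averaged 265 CPM in IgG, 127 in DN1, 46.2 in DN2a and 25.2 in DN2b. For *Spib* they included *Ifit2*, an interferon-response gene (0.981), and *Nnmt* (0.978). For *Erg* they included *Hes6* (0.981) and *Acap1* (0.978), with *Hes6* at 49.7, 52.8 and 48.7 CPM in the stages against 20.8 in IgG. For *Ets1* the most similar genes were less so, *Fbxo17*, *Tmem198b* and *Ndrg1* (0.879, 0.876 and 0.853). Among the members themselves the highest r was 0.873 between *Erg* and *Gabpa*, and *Spi1* was nearest to *Elf4* (0.827).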

How the data were processed

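RNA of 10 libraries (DN1, DN2a and DN2b, 2 each, and the no Notch control, 4) was analysed, grouped by the sample labels. The authors removed failed reads, trimmed read end 1 to 36 bases and mapped it on mm10 by TopHat (TopHat2 2.12 in the submitters' processing notes), and counted reads with HTSeq 0.6.1p1 (intersection-strict). The files they deposited list unnormalised counts by gene symbol. The kit keeps strand. Gene annotation and strand setting are not given in the sources used here, and short reads with 16.4% to 30.1% of reads aligning to several places leave near-identical genes uncertain. The 5 summary lines of each library were dropped.

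The genes that reached 1 CPM in 2 or more libraries were fitted with edgeR 4.0.16 in R 4.3.3 (quasi-likelihood test, TMM factors 0.858 to 1.19, common dispersion 0.189), all 10 libraries in 4 groups, with Benjamini-Hochberg adjustment over 12221 genes and a threshold of 0.05. The standard error is the size of the log2FC divided by the square root of F. Floors of 3 counts cover counting error only. Alternatives were DESeq2 1.42.0, library-size scaling, filterByExpr or no filter, a fit of the compared groups alone, fits of the 6 DN libraries with and without the label year as a replicate block, either pair of controls, and each library left out in turn. Deviations of same-year libraries correlated at 0.0842 (DN1 and DN2a), 0.287 (DN1 and DN2b) and 0.270 (DN2a and DN2b, which share label dates) across genes. Scripts were tested on simulated counts.

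The members, the gene lists and the marker genes were chosen with earlier results of these data known. Named genes are the members, genes of those lists and, for *Spi1*, *Spib*, *Erg* and *Ets1*, the 3 genes of most similar profile, some of which are not reported here. Promoters are RefSeq windows cut to the 250 bases before a start. Proteins were not used here. Python 3.11.15 and matplotlib 3.10.9 drew the figures.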

Additional observations from a re-analysis of the deposited data

Results flagged for a closer look

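In 2 of the 10 groups of IgG values examined, 1 for each member, a library stood apart from the other 3 (the gap to its nearest neighbour, as a share of the range, was above Dixon's critical value). Chance flags about 1 in 20 such groups. *Erg* was lowest in IgG replicate 1, at 5.28 CPM against 14.8 to 15.8 (share 0.904), and *Elf4* was highest in IgG replicate 2, at 142 CPM against 119 to 122 (share 0.888). Leaving out either library kept the calls of *Erg* in the comparisons with IgG, and leaving out IgG replicate 2 moved *Elf4* in DN1 over IgG to -0.58 (edgeR, adjusted p = 0.0524) and ended that call.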

How the results depend on the processing

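Of 60 member values, 19 were called, and over 323 alternative values for these the direction never turned, 262 kept the call and 61 lost it. With controls D1 and D2 alone, 3 members were called in DN1 over IgG (6 in the main result) and 2 in DN2b over IgG (4). With each library left out in turn, the members called ranged from 2 to 8 in DN1 over IgG, 2 to 7 in DN2a over IgG, 1 to 6 in DN2b over IgG, 0 to 1 in DN2a over DN1 and 1 to 2 in DN2b over DN1. DN2a over DN1 had 0 members called with only the groups compared, 0 in the DN libraries alone and 0 with the replicate block, and DESeq2 called 1 in DN2b over DN2a. Among the 6 DN libraries, adding the replicate block by label year (2 pairs) changed no member's call, *Spi1* in DN2a over DN1 being uncalled there without it too (adjusted p = 0.0954, with the block 0.106), and moved all-gene calls from 32 to 67 in that comparison. Uncalled values turned sign for *Erg* in DN2a over DN1 (0.01 without the filter), *Fli1* and *Gabpa* in DN2a over DN1 (-0.14 and -0.15 by library size), *Elf1* in DN2b over DN2a (0.0 without the filter) and *Gabpa* in DN2b over DN1 (0.01 by DESeq2). On leaving out libraries, ranges were -2.99 to 3.62 for *Spib*, -0.18 to 0.17 for *Erg* and -0.06 to 0.15 for *Gabpa* in DN2a over DN1, -0.15 to 0.12 for *Gabpa* in DN2b over DN1, and -0.17 to 0.06 for *Etv6* and -0.19 to 0.08 for *Gabpa* in DN2b over DN2a. The cause was not tested. All-gene calls moved from 49 to 474 (DESeq2), 101 (no filter), 22 (groups compared) and 32 (DN libraries, no block) in DN2a over DN1, from 233 to 822 and 80 (DESeq2, groups compared) in DN2b over DN1, from 0 to 29 (DESeq2) and 1 (no filter) in DN2b over DN2a, and with controls D1 and D2 alone from 3834 to 2299 in DN1 and 5190 to 3238 in DN2b over IgG. With a library left out they ranged from 0 (without either DN2a library) to 230 (without DN1 replicate 2) in DN2a over DN1 and 50 to 385 in DN2b over DN1. With 2 libraries per stage, differences between stages were tested at low precision.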

Other observations

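Sort markers and other cell type markers were described for the same libraries. The mean level of *Kit* was 62.6 ± 41.6 CPM over the 4 controls, 392 ± 65.1 for DN1, 191 ± 20.1 for DN2a and 153 ± 36.6 for DN2b (SD, n = 2 per stage), and that of *Cd44* 438.5 ± 97.9, 156 ± 24.2, 48.8 ± 5.18 and 12.1 ± 1.45. Of the 7 NK and innate lymphoid markers, whose summed level was 11.7 to 161 CPM in IgG and 430.5 to 2510 in DN1, 4 passed the filter. Of these edgeR called the granzyme gene *Gzmb* alone, higher in each DN stage than in IgG. *Gzmb* (249 and 2310 CPM) and *Nkg7* (mean 185) made up most of the DN1 sums, and *Gzmb* averaged 100 CPM in DN2b. *Ncr1*, *Eomes* and *Tbx21* were at 1.13 CPM or less in every library. Dendritic markers (5 genes) summed to 25.5 to 319 CPM in IgG, 49.6 and 126 in DN1, 31.9 and 40.5 in DN2a and 6.44 to 8.98 in DN2b, with *Cd209a* at 0 in every library. *H2-Ab1* reached 276 CPM in IgG against a median of 22.3 there, and *Itgax* averaged 34.3 CPM in IgG and 84.1 in DN1. Megakaryocyte and erythroid markers (8 genes) summed to 253 to 916 CPM in IgG, 137 and 662 in the DN1 libraries, 121 and 139 in DN2a and 19.3 to 28.4 in DN2b.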
